A study of Mus musculus with 6 samples.

Results

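Integrins are the cell surface receptors through which fibroblasts hold the extracellular matrix, and focal adhesions are the plaques that join those receptors to actin. The genes described are 35 members of these families, 18 integrin subunits and 17 focal adhesion genes, out of 55401 genes in the deposited table. They were taken from the genes whose symbol is Itga or Itgb followed by a digit, or Itgav, together with a list of focal adhesion genes. Each had a mean of at least 1 CPM (counts scaled to library size, with TMM factors) over the 6 libraries. The lowest of the 35 were Itgb7, at 1.34 CPM, and Itgb4, at 1.48 CPM, and the highest was Flna, at 3145 CPM. The same pattern of letters also takes Itgb1bp1 and Itgb3bp, which are not integrins, and Itga2b and Itgb2, the subunits of platelets and leukocytes, which are not among the 35. Itga2b measured 3.31, 3.03 and 4.45 CPM in Thbs2KO libraries and 3.83, 3.02 and 2.89 CPM in WT libraries. Itgb2 measured 2.79, 2.79 and 2.69 CPM in Thbs2KO libraries and 3.83, 0.745 and 2.01 CPM in WT libraries. The nearest symbols under the minimum were Itgb1bp2, at 0.0766 CPM, and Itgb6, at 0.0641 CPM.

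The libraries came from cancer-associated fibroblasts (CAFs), the fibroblasts of a tumour, isolated from tumours that grew from mouse tumour organoids (MTOs) implanted in the rectum. There were 3 libraries from Thbs2KO hosts, labelled as knockouts of the gene for the secreted glycoprotein thrombospondin-2, and 3 from wild-type (WT) hosts. In both groups the CAFs had been cultured on plates coated with fibronectin, itself an integrin ligand, in DMEM with serum. The labels give no age or strain of the mice and no genotype of the organoids. They also do not say whether replicates are separate mice or cultures, and the p-values therefore take in the spread of these libraries alone, which may be technical. RNA was bulk, so fewer cells of a type and less RNA per cell cannot be told apart.

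Library totals ran from 19649066 to 20860335 expected counts in the Thbs2KO group and from 23061568 to 24417464 in the WT group. Thbs2 measured 538, 425 and 412 CPM in Thbs2KO libraries and 2327, 4166 and 3705 CPM in WT libraries. It fell in the labelled group (edgeR log2 fold change -2.89, SE 0.246, Benjamini-Hochberg adjusted p = 0.00521), but reads remained. The labels do not give the part of the gene deleted. All 9 fibroblast markers averaged 1 CPM or more, and their summed level was 25583 to 32016 CPM in Thbs2KO libraries and 26594 to 29399 CPM in WT libraries. The leukocyte marker Ptprc was at or near 0 in the 6 libraries, and the 8 leukocyte markers, 2 of them averaging 1 CPM or more, summed to 4.45 to 6.21 CPM in Thbs2KO libraries and 3.33 to 6.67 CPM in WT libraries. The closest libraries were Thbs2KO replicates 1 and 2, whose counts differed with a chi-square over degrees of freedom of 3.78, while every other pair of libraries had 15.7 to 121.8. WT replicate 1 and Thbs2KO replicate 3 stood apart from the rest of their groups, so several values that move with them are given with and without them.

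An integrin is a pair of an alpha and a beta subunit, and the pair sets the ligand. The Itgb1 product pairs with most alpha subunits, while the Itgav product also takes those of Itgb3, Itgb5 and Itgb8. Outside the cell the pairs bind collagen, laminin or ligands such as fibronectin. Inside the cell talin and kindlin bind the beta tail, and vinculin, tensin, filamin and alpha-actinin tie the complex to actin, where FAK and Src signal. In fibroblasts these adhesions transmit the force by which the cells pull on matrix and are known to grow with that force.

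In Thbs2KO CAFs the focal adhesion genes were lower on average than in WT CAFs, and the integrin subunits were mixed. Of the 17 focal adhesion genes, 17 had a negative log2 fold change (Thbs2KO over WT), with a median of -0.30. Of the 18 integrin subunits 10 were negative and 8 positive, with a median of -0.16. Among all 13590 tested genes 50.9% were negative, and the median was -0.0038. The members were chosen with earlier results of these data known, and the 17 were not tested as a set. They also moved together between libraries, with WT replicate 1 the lowest WT library for 15 of the 17, so they are not independent counts. Of 48 further adhesion genes tested, described below, 35 were negative, with a median of -0.076. Of the 35, 0 passed the test across all genes (edgeR quasi-likelihood, Benjamini-Hochberg adjusted p below 0.05), against 1.09% of all tested genes (0.552% higher and 0.537% lower in Thbs2KO). Before adjustment, 2 members were higher and 13 lower in Thbs2KO at an edgeR p under 0.05, where the shares of all genes were 5.72% and 7.56%. DESeq2 called 0 higher and 8 lower, where the shares of all genes were 2.21% and 2.93%, and limma-voom called 0.

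The smallest adjusted p among the 35 were those of Tns1 and Zyx. Tns1 encodes tensin, which links beta tails to actin (ENSMUSG00000055322.16, chromosome 1, 73910231 to 74124449, minus strand, mm10). It measured 212, 225 and 233 CPM in Thbs2KO libraries and 334, 433 and 529 CPM in WT libraries. The groups did not overlap, with the Thbs2KO libraries lower and the WT libraries spread far more widely. The means were 223 ± 10.6 CPM in Thbs2KO and 432 ± 97.8 CPM in WT (SD, n = 3 each), which gave an edgeR log2 fold change of -0.95 (SE 0.166, Benjamini-Hochberg adjusted p = 0.062). Zyx encodes zyxin, which gathers at adhesions under tension (ENSMUSG00000029860.16, chromosome 6, 42349630 to 42360213, plus strand). It measured 495, 499 and 483 CPM in Thbs2KO libraries and 730.2, 729 and 619 CPM in WT libraries, again without overlap. Its means were 492 ± 8.08 CPM in Thbs2KO and 693 ± 63.8 CPM in WT (edgeR log2 fold change -0.49, SE 0.0903, Benjamini-Hochberg adjusted p = 0.0691). DESeq2 called both lower, with adjusted p = 2e-05 for Tns1 and 6.78e-05 for Zyx. Without WT replicate 1 Tns1 passed the edgeR test (Benjamini-Hochberg adjusted p = 0.0136), in a fit that called 1.83% of all genes lower. With any other single library left out Tns1 did not pass, and its edgeR adjusted p was up to 0.256.

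The actin linkers and crosslinkers were the class of the 35 with the most members apart between groups. The log2 fold changes of all 7 were negative (median -0.44), and in 6 of 7 the groups did not overlap, with Thbs2KO lower, which held for 10.3% of all tested genes. Flna encodes filamin A, the crosslinker that also binds beta tails. It measured 2667, 2778 and 2551 CPM in Thbs2KO libraries and 3029, 3871 and 3975 CPM in WT libraries (log2 fold change -0.44, SE 0.127). Vcl encodes vinculin, recruited to talin as force stretches it. It measured 568, 595 and 703 CPM in Thbs2KO libraries and 736, 869.9 and 866 CPM in WT libraries (log2 fold change -0.41, SE 0.117). For both, the lowest WT library was replicate 1, and it still lay above the highest Thbs2KO library.

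The alpha-actinins, which bundle actin behind the adhesion, followed the same order. Actn1 measured 675, 751 and 610.5 CPM in Thbs2KO libraries and 796, 1112 and 1171 CPM in WT libraries (log2 fold change -0.60, SE 0.164). Actn4 measured 697, 714 and 665 CPM in Thbs2KO libraries and 747, 932 and 1007 CPM in WT libraries (log2 fold change -0.37, SE 0.122). Tns3, a second tensin, overlapped, at 252, 262 and 302 CPM in Thbs2KO libraries and 289.8, 336 and 343 CPM in WT libraries, because Thbs2KO replicate 3 lay above WT replicate 1. By edgeR the Benjamini-Hochberg adjusted p were 0.19 for Flna, 0.193 for Vcl, 0.176 for Actn1, 0.258 for Actn4 and 0.382 for Tns3. Without WT replicate 1, Flna, Actn1 and Actn4 passed (edgeR, Benjamini-Hochberg adjusted p = 0.0387, 0.0328 and 0.044), while Vcl and Tns3 did not (0.0925 and 0.166). That fit called 1.83% of all genes lower. With any other single library left out Flna, Actn1 and Actn4 did not pass. Their edgeR adjusted p was then up to 0.519, 0.486 and 0.632. With all libraries DESeq2 called Flna, Vcl and Actn1 lower (adjusted p = 0.0304, 0.0441 and 0.0248).

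**Figure D1:**
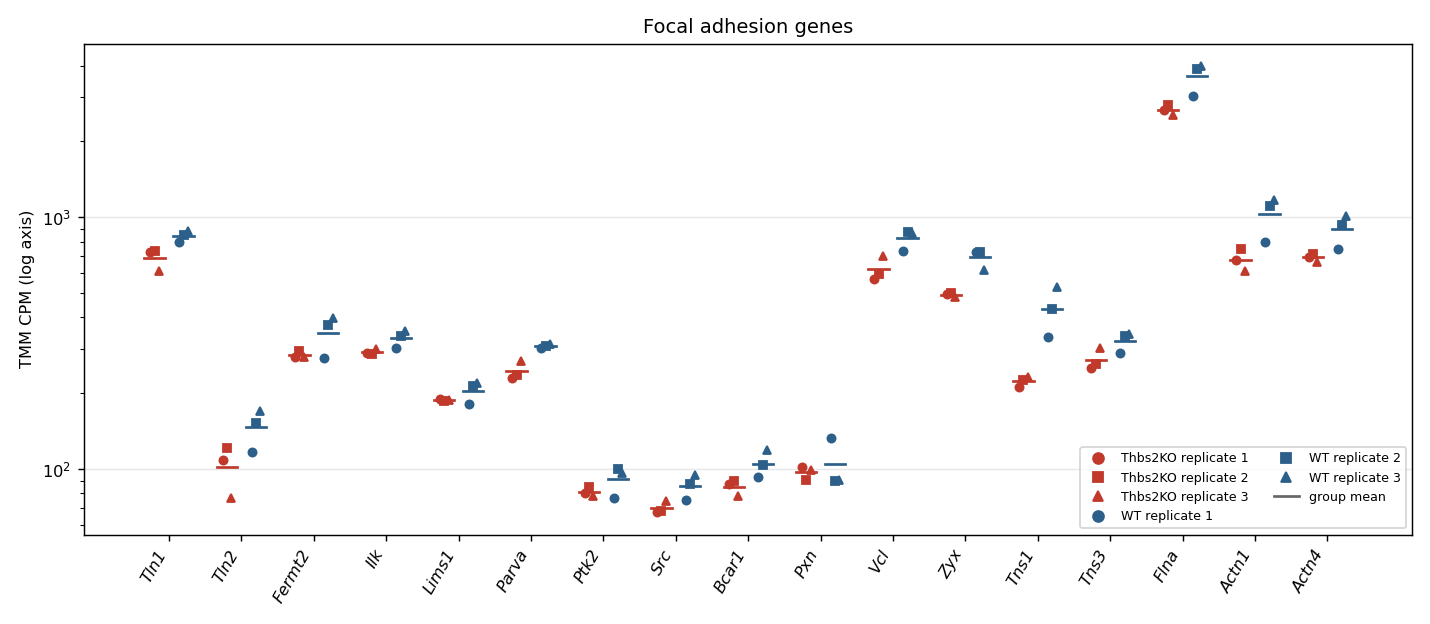
TMM CPM on a log axis for the 17 focal adhesion genes, with Thbs2KO libraries as red symbols at left and WT libraries as blue symbols at right of each gene, a symbol shape for each replicate and a line at each group mean. The red means lie below the blue means for all 17 genes, and Tns1 and Zyx show a gap between the groups.

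The starts of these genes are shown because several cytoskeletal adhesion genes are known targets of serum response factor, which binds the CArG box, and of TEAD factors. RefSeq starts were matched for 27 of the 35 members (32 starts, GRCm38.p6), and the 250 bases before each were searched on both strands for 3 motifs. These were the CArG box, GGAATG (the TEAD core) and TGACTCA (the AP-1 site). The 4 sequences below are those of the 2 members with a CArG box, Vcl and Fermt2, and of the 2 with the smallest edgeR p, Zyx and Tns1. Each is the strand of the gene, read 5′ to 3′ up to the start. Capitals mark a match, which in Zyx is TGACTCA read from the other strand, and no 2 matches overlap.
Vcl (chr14:20929148-20929397, plus strand): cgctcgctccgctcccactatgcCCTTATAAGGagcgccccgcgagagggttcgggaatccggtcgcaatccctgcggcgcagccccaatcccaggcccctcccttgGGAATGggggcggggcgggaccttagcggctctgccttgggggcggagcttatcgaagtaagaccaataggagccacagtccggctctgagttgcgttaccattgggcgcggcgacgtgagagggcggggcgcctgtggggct
Fermt2 (chr14:45530066-45530315, minus strand): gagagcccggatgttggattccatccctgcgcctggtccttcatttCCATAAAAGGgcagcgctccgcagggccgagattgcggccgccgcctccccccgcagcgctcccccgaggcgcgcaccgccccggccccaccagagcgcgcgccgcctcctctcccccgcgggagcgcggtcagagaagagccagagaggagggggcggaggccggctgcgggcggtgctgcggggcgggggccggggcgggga
Zyx (chr6:42349578-42349827, plus strand): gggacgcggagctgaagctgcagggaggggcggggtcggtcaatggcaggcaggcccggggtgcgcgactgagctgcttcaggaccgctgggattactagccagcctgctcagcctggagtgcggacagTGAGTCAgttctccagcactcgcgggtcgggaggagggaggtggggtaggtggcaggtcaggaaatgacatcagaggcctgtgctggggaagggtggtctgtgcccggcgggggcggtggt
Tns1 (chr1:74124549-74124798, minus strand): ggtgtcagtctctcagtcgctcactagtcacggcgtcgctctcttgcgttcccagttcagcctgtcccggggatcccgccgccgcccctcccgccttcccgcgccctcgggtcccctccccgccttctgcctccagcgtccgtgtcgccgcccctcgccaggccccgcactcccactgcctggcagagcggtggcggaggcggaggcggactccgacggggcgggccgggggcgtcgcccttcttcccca

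In Vcl the CArG box spans the bases 227 to 218 before the start, and GGAATG the bases 143 to 138. In Fermt2 the CArG box spans the bases 204 to 195 before the start, and in Zyx the AP-1 letters span the bases 121 to 115. These are RefSeq starts. The GENCODE gene Zyx begins at 42349630, within its window, so the AP-1 letters lie inside that gene. The Flna window, 74246535 to 74246784 on chromosome X, also lies inside its GENCODE gene, 74223461 to 74249820. None of the 3 motifs matched in the Tns1 window, which says only that these letters are not in it. A CArG box was found at 2 of 32 member starts and at 1.47% of all 32851 starts. GGAATG was found at 5 of 32 member starts, those of Actn4, Flna, Itga10, Itgb1 and Vcl, and at 12.6% of all starts. TGACTCA was found at 1 of 32 member starts and 4.46% of all starts. The matches describe the letters and are no measure of binding.

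The genes that switch integrins on were lower on average in Thbs2KO. In 1 of the 3 the groups did not overlap, with Thbs2KO lower, which held for 10.3% of all tested genes. Tln1 encodes the main talin of fibroblasts, and measured 728, 731 and 613 CPM in Thbs2KO libraries and 799, 849 and 879 CPM in WT libraries, with no overlap. Tln2, the second talin gene, measured 108, 121 and 76.7 CPM in Thbs2KO libraries and 117, 152 and 169.8 CPM in WT libraries, where Thbs2KO replicate 2 lay above WT replicate 1. Fermt2, the kindlin of fibroblasts, measured 279, 293 and 279.5 CPM in Thbs2KO libraries and 276, 373 and 396 CPM in WT libraries. WT replicate 1 was below every Thbs2KO library for Fermt2, and without it Fermt2 passed the test (log2 fold change -0.44, edgeR, Benjamini-Hochberg adjusted p = 0.0433). That fit called 1.83% of all genes lower. With any other single library left out Fermt2 did not pass, and its edgeR adjusted p was up to 0.851. With all libraries the log2 fold changes were -0.29 for Tln1, -0.52 for Tln2 and -0.29 for Fermt2 (edgeR, Benjamini-Hochberg adjusted p = 0.275, 0.34 and 0.441).

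Ilk, Lims1 and Parva encode the integrin-linked pseudokinase, PINCH and parvin, which form a single complex at the adhesion. Parva had the smallest edgeR p of the 3, at 229.8, 236 and 269.6 CPM in Thbs2KO libraries and 301, 308 and 313 CPM in WT libraries (log2 fold change -0.33, SE 0.0837). Its WT libraries were close together, and its Thbs2KO libraries lay below them without overlap (edgeR, Benjamini-Hochberg adjusted p = 0.148; DESeq2 called it lower, adjusted p = 0.0209). Ilk measured 289, 287 and 301 CPM in Thbs2KO libraries and 303, 338 and 352 CPM in WT libraries, also without overlap. Lims1 measured 189, 187 and 188 CPM in Thbs2KO libraries and 181, 214 and 219 CPM in WT libraries, and its groups overlapped. The log2 fold changes of the other members were -0.18 for Ilk (SE 0.0809) and -0.12 for Lims1 (SE 0.0889), and differences between the 3 genes were not tested. For Lims1 the value ran from -0.20 to -0.071 with 1 library left out, and was -0.20 without WT replicate 1.

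Among the signalling genes, Src, the tyrosine kinase, measured 67.3, 68.4 and 74.3 CPM in Thbs2KO libraries and 75.6, 87.0 and 94.8 CPM in WT libraries. Bcar1, which encodes the Src substrate p130Cas, measured 87.4, 89.8 and 78.2 CPM in Thbs2KO libraries and 92.9, 103 and 119 CPM in WT libraries. For both, the Thbs2KO libraries lay below the WT libraries without overlap, which held for 10.3% of all tested genes. By edgeR their Benjamini-Hochberg adjusted p were 0.268 for Src and 0.297 for Bcar1. Ptk2, the focal adhesion kinase gene, measured 80.1, 84.7 and 77.8 CPM in Thbs2KO libraries and 76.8, 100.3 and 96.8 CPM in WT libraries. Pxn, the scaffold paxillin, measured 102, 90.6 and 99.0 CPM in Thbs2KO libraries and 133, 89.6 and 90.6 CPM in WT libraries. Both overlapped, and Pxn was highest in WT replicate 1, without which its log2 fold change was 0.11 instead of -0.10.

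**Figure D2:**
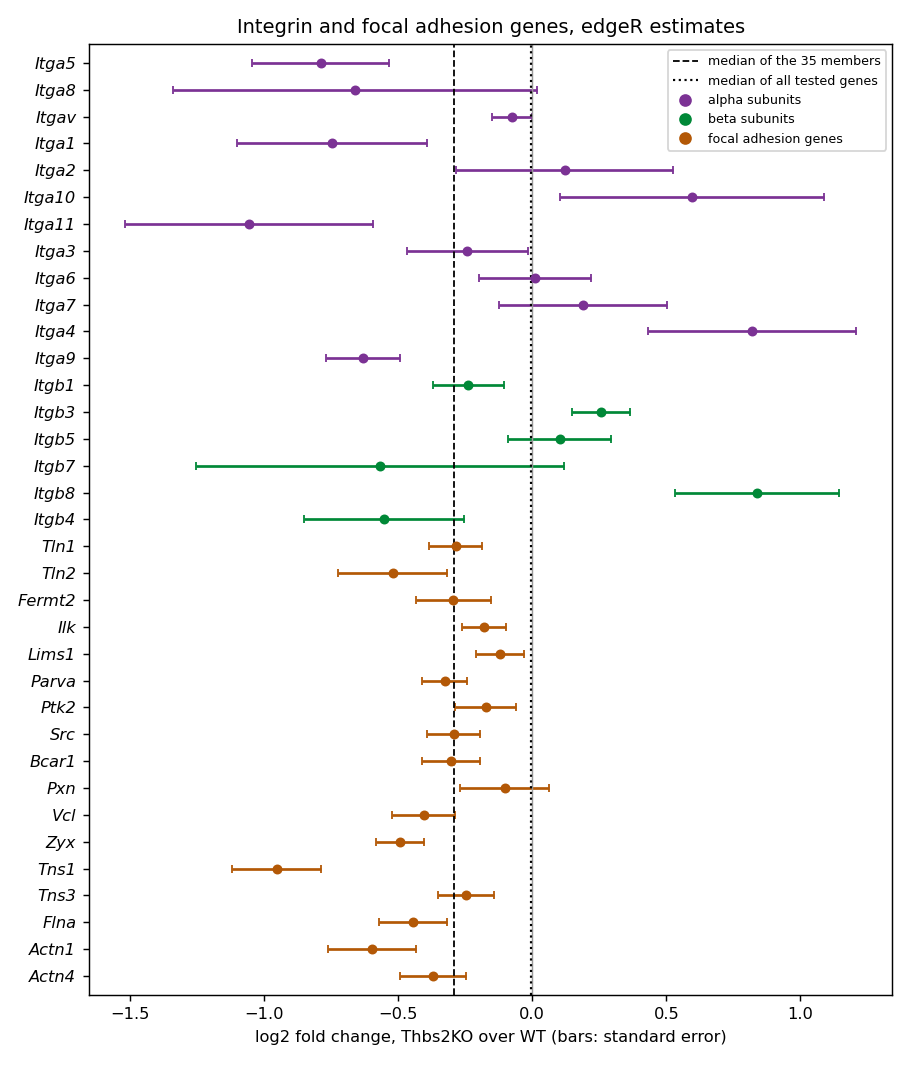
Log2 fold change of Thbs2KO over WT for each of the 35 genes with its standard error as a bar (edgeR), coloured as alpha subunits, beta subunits and focal adhesion genes. The 17 focal adhesion genes all lie left of 0, the integrin subunits lie on both sides, and the dashed line marks the median of the 35 while the dotted line marks the median of all tested genes, -0.0038.

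Levels of different genes were compared as CPM per kilobase of exon. Itgb1, the shared beta subunit (ENSMUSG00000025809.15, chromosome 8, 128685654 to 128733200, plus strand), led the integrins with 379.8 ± 23.3 CPM per kilobase in Thbs2KO and 448 ± 71.2 in WT (SD, n = 3 each). It made up 77.3% ± 3.57 of the summed level of the 6 beta genes in Thbs2KO and 80.8% ± 2.46 in WT. Itgb5 gave 20.7% ± 3.59 in Thbs2KO and 17.6% ± 2.28 in WT, and Itgb3 gave 1.80% ± 0.0846 in Thbs2KO and 1.35% ± 0.115 in WT. Of the 12 alpha genes, Itga5 held 61.5% ± 6.22 of the summed level in Thbs2KO and 68.7% ± 6.81 in WT. Itgav followed with 24.3% ± 0.836 in Thbs2KO and 17.6% ± 5.45 in WT. The third alpha gene was Itga11, with 3.38%, 2.57% and 9.87% in Thbs2KO libraries and 7.38%, 8.04% and 5.69% in WT libraries, and the other 9 each averaged under 2% in both groups. The CAFs of both genotypes thus held mostly transcripts of Itga5 and Itgav among the alpha genes, and of Itgb1 and Itgb5 among the beta genes. Itga5 and Itgb1 are the fibronectin receptor pair.

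**Figure D3:**
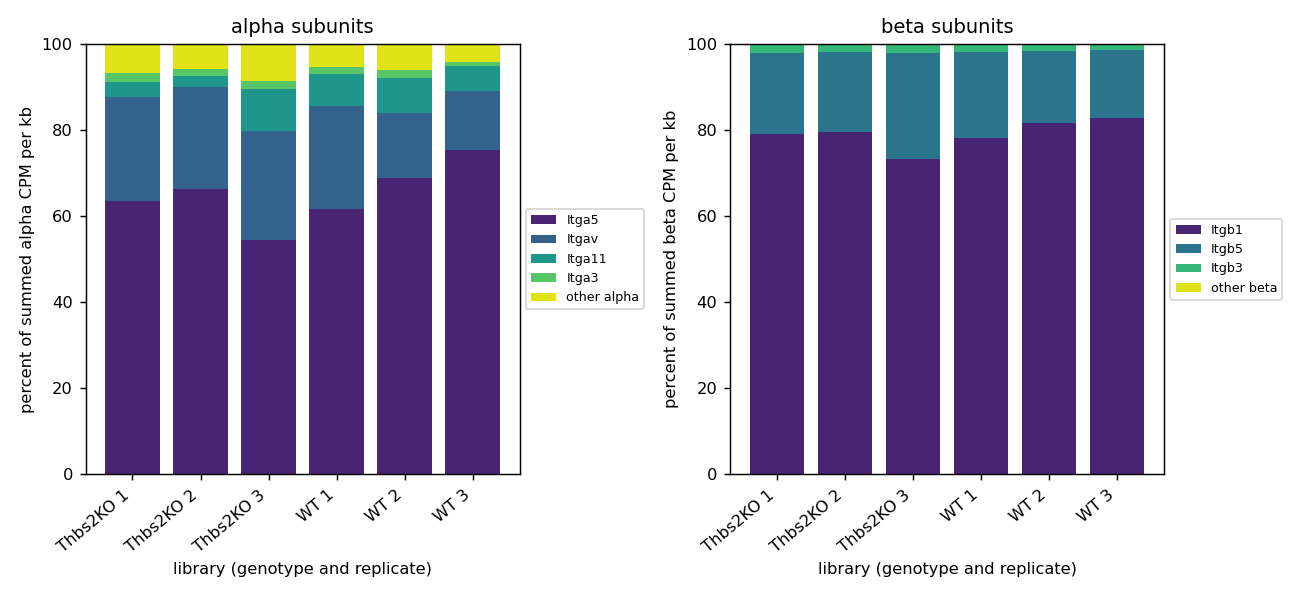
Share of each gene in the summed CPM per kilobase of exon of the alpha subunits (left) and beta subunits (right), as stacked bars for each library, Thbs2KO at left and WT at right of each panel. Itga5 and Itgb1 are the widest bands in all 6 libraries, and WT replicate 1 has an Itgav share of 23.8%, near the 23.6% to 25.2% of the Thbs2KO libraries and above the 15.1% and 13.8% of WT replicates 2 and 3.

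Among the receptors of fibronectin and related ligands, Itga5 differed more than Itgav. Itga5, the dedicated fibronectin subunit (ENSMUSG00000000555.8, chromosome 15, 103344286 to 103366763, minus strand), measured 543, 599.8 and 430.5 CPM in Thbs2KO libraries and 593, 959 and 1169 CPM in WT libraries. WT replicates 2 and 3 lay far above the Thbs2KO libraries, while WT replicate 1 lay among them. Its mean was 525 ± 86.2 CPM in Thbs2KO and 907 ± 292 CPM in WT, which gave an edgeR log2 fold change of -0.79 (SE 0.256, Benjamini-Hochberg adjusted p = 0.253; DESeq2 called it lower, adjusted p = 0.0488). Without WT replicate 1 it passed the edgeR test (log2 fold change -1.02, Benjamini-Hochberg adjusted p = 0.0409), in a fit that called 1.83% of all genes lower. With any other single library left out Itga5 did not pass, and its edgeR adjusted p was up to 0.602. Itgav measured 452, 463 and 434 CPM in Thbs2KO libraries and 499, 456 and 468 CPM in WT libraries (log2 fold change -0.076, SE 0.0739), the smallest standard error of the 35. Per kilobase, Itga5 stood at 2.62, 2.82 and 2.16 times the level of Itgav in Thbs2KO libraries and at 2.59, 4.58 and 5.44 times in WT libraries. That ratio in WT replicate 1 fell within the Thbs2KO range.

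Itga8, a receptor of nephronectin found in mesenchyme and smooth muscle, varied too widely to compare. It measured 7.75, 4.31 and 14.3 CPM in Thbs2KO libraries and 4.39, 25.9 and 11.5 CPM in WT libraries, and without WT replicate 2 its log2 fold change was 0.15 instead of -0.66.

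The collagen receptors had log2 fold changes of both signs. Itga11, the fibrillar collagen receptor of fibroblasts, measured 30.1, 24.2 and 81.2 CPM in Thbs2KO libraries and 73.7, 116 and 91.8 CPM in WT libraries. Thbs2KO replicates 1 and 2 were far below every WT library, and Thbs2KO replicate 3 lay between WT replicates 1 and 3. By edgeR its log2 fold change was -1.06 (SE 0.461, Benjamini-Hochberg adjusted p = 0.397), and it passed without Thbs2KO replicate 3 (log2 fold change -1.79, adjusted p = 0.0449). That fit called 0.389% of all genes lower. With any other single library left out Itga11 did not pass, and its edgeR adjusted p was up to 0.722. Itga1, which prefers the collagen of basement membranes, measured 21.6, 23.7 and 35.9 CPM in Thbs2KO libraries and 26.1, 66.0 and 44.2 CPM in WT libraries, with overlap. Itga2, the collagen receptor of platelets and epithelia, measured 13.0, 12.2 and 6.80 CPM in Thbs2KO libraries and 6.20, 15.6 and 7.59 CPM in WT libraries. Itga10, best known in cartilage, measured 2.27, 2.22 and 6.63 CPM in Thbs2KO libraries and 3.14, 2.46 and 1.75 CPM in WT libraries, and only Thbs2KO replicate 3 stood out. Of the 4 collagen receptors 0 had an edgeR p under 0.05 unadjusted, and 0 were called by DESeq2 or limma-voom.

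The laminin receptors were low and showed no difference beyond the spread between libraries. Itga3, a laminin receptor of epithelia, measured 20.7, 18.4 and 17.2 CPM in Thbs2KO libraries and 20.6, 29.9 and 16.2 CPM in WT libraries. Itga6, which pairs with Itgb4 in hemidesmosomes, measured 19.0, 15.1 and 14.6 CPM in Thbs2KO libraries and 20.9, 14.7 and 12.8 CPM in WT libraries. Itga7, the laminin receptor of muscle, measured 14.4, 14.8 and 16.3 CPM in Thbs2KO libraries and 7.06, 17.3 and 15.6 CPM in WT libraries, where WT replicate 1 was lowest. Itgb4 was near the minimum, at 0.993, 1.17 and 1.42 CPM in Thbs2KO libraries and 2.20, 1.27 and 1.80 CPM in WT libraries. All 4 overlapped between groups, their log2 fold changes ran from -0.55 to 0.19, and 0 of 4 had an edgeR p under 0.05 unadjusted or a call by DESeq2 or limma-voom.

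Itga4 and Itga9 form a subfamily of their own and had log2 fold changes of opposite sign. Itga9, a receptor of tenascin-C among other ligands (ENSMUSG00000039115.13, chromosome 9, 118606690 to 118901003, plus strand), measured 13.9, 16.4 and 16.4 CPM in Thbs2KO libraries and 23.5, 20.9 and 28.0 CPM in WT libraries. All its Thbs2KO libraries lay below the WT libraries, which held for 1 of the 18 subunits and for 10.3% of all tested genes (edgeR log2 fold change -0.63, SE 0.138, Benjamini-Hochberg adjusted p = 0.104; DESeq2 called it lower, adjusted p = 0.00827). Itga4, a receptor of VCAM1 and fibronectin best known in leukocytes, measured 22.4, 11.8 and 25.6 CPM in Thbs2KO libraries and 6.41, 12.3 and 15.2 CPM in WT libraries, with overlap (edgeR log2 fold change 0.82, SE 0.387, Benjamini-Hochberg adjusted p = 0.44). Itgb7, the leukocyte partner of Itga4, was at 1.51, 1.52 and 0.196 CPM in Thbs2KO libraries and 2.37, 0.920 and 1.51 CPM in WT libraries, the lowest value resting on 4 counts.

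Of the beta partners of Itgav, Itgb3 and Itgb8 were higher in every Thbs2KO library than in any WT library, which held for 9.36% of all tested genes. Itgb3, a subunit of the vitronectin receptor, measured 50.6, 46.8 and 59.4 CPM in Thbs2KO libraries and 40.7, 45.5 and 45.0 CPM in WT libraries (edgeR log2 fold change 0.26, SE 0.108, Benjamini-Hochberg adjusted p = 0.376). Itgb8, whose pair with Itgav is known to release active TGF-beta from its latent complex, measured 5.30, 4.94 and 8.26 CPM in Thbs2KO libraries and 4.22, 3.81 and 2.31 CPM in WT libraries (edgeR log2 fold change 0.84, SE 0.306, Benjamini-Hochberg adjusted p = 0.305). DESeq2 and limma-voom called neither. Itgb5 measured 307, 304 and 489 CPM in Thbs2KO libraries and 345, 328 and 352 CPM in WT libraries, and Thbs2KO replicate 3 alone was above the WT level. Without that library its log2 fold change was -0.16 instead of 0.10. Itgb1 measured 1478, 1514 and 1658 CPM in Thbs2KO libraries and 1534, 1836 and 2115 CPM in WT libraries, with WT replicate 1 within the Thbs2KO range (edgeR log2 fold change -0.24, SE 0.133, Benjamini-Hochberg adjusted p = 0.527).

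**Figure D4:**
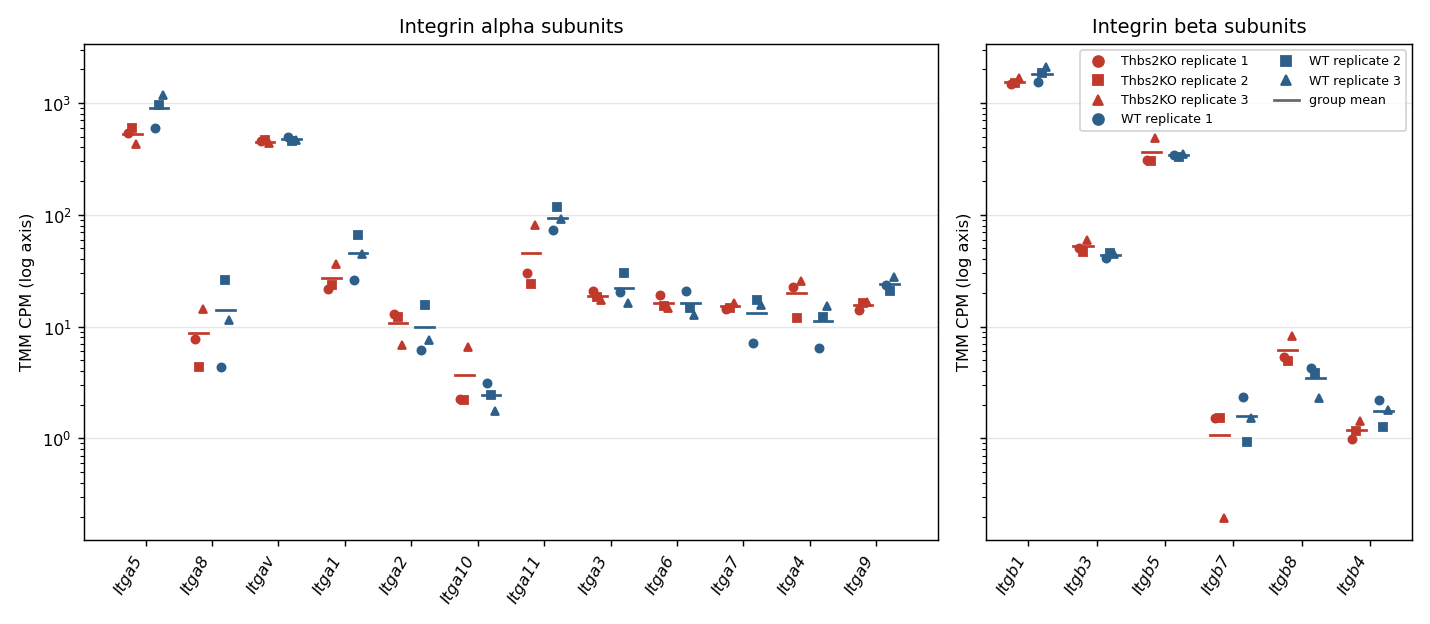
TMM CPM on a log axis for the 12 alpha and 6 beta subunits, with Thbs2KO libraries as red symbols at left and WT libraries as blue symbols at right of each gene, a symbol shape for each replicate and a line at each group mean. Itga9 is separated with the Thbs2KO libraries lower, Itgb3 and Itgb8 are separated with the Thbs2KO libraries higher, and the other 15 overlap. That is 3 of 18 subunits, where 2669 of 13590 tested genes were separated in either direction.

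The WT libraries differed among themselves in these genes. WT replicate 1 was the lowest WT library for 24 of the 35 members and for 15 of the 17 focal adhesion genes, against 5481 of 13590 tested genes. As mean log2 level relative to the 6 libraries, the 17 focal adhesion genes stood at -0.19, -0.15 and -0.20 in Thbs2KO libraries and at 0.020, 0.22 and 0.28 in WT libraries. The 18 integrin subunits stood at -0.095, -0.21 and 0.10 in Thbs2KO libraries and at -0.12, 0.24 and 0.074 in WT libraries, with overlap. When WT replicate 1 was left out together with Thbs2KO replicate 3, edgeR called 0 members higher and 19 lower, where 6.37% of all genes were called lower. These were 16 of the 17 focal adhesion genes, all but Pxn, with Itga5, Itga11 and Itgb1. That fit has 2 libraries a group, and the pair were left out because they stood apart in earlier results of these data. The Thbs2KO libraries it keeps are replicates 1 and 2, the closest of all pairs, whose spread may be technical. With those replicates summed to 1 library and all the others kept, 0 members were called.

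Some members that did not pass with WT replicate 1 alone or Thbs2KO replicate 3 alone left out still moved in size with these libraries. Without WT replicate 1 the log2 fold change was 0.54 for Itga4 (all libraries 0.82), -1.09 for Itga8 (all libraries -0.66), -0.36 for Itgb4 (all libraries -0.55), -0.17 for Itgb7 (all libraries -0.57) and -0.28 for Ptk2 (all libraries -0.17). Itga2 and Itga7 changed sign, to -0.12 and -0.11, and Itga6 was 0.24 instead of 0.0097. For Itgb1 it was -0.35 instead of -0.24, and for Itga1 -1.02 instead of -0.75. Without Thbs2KO replicate 3 it was 0.16 for Itgb3 (all libraries 0.26), 0.36 for Itga2 (all libraries 0.12), -1.20 for Itga8 (all libraries -0.66), -0.13 for Itga10 (all libraries 0.59) and -0.077 for Itgb7 (all libraries -0.57). In that fit the value was also 0.57 for Itgb8 (all libraries 0.84) and -0.35 for Tln2 (all libraries -0.52). Itgav stayed near 0 in both fits, at -0.038 and -0.050.

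**Figure D5:**
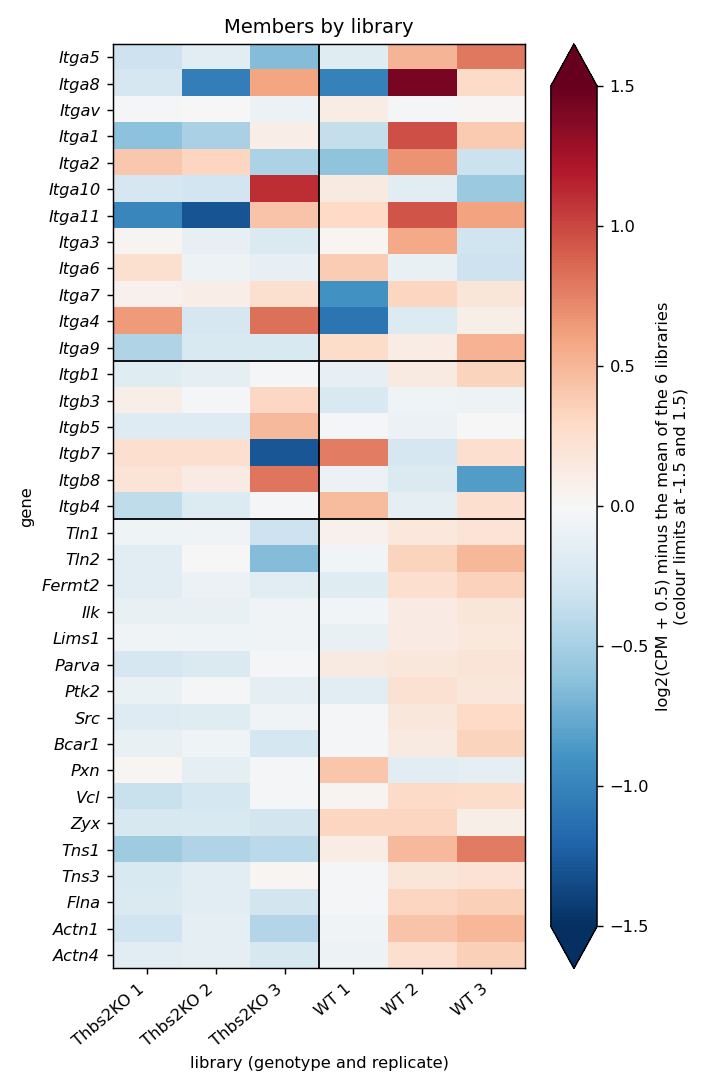
Each row is a gene and each column a library, Thbs2KO at left and WT at right of the black line. Colour gives log2(CPM + 0.5) minus the gene's mean over the 6 libraries. Most focal adhesion genes are blue to white across Thbs2KO and red in WT replicates 2 and 3, with WT replicate 1 near white for most. Pxn and Zyx are exceptions, at 0.41 and 0.32 in WT replicate 1. Integrin rows differ from gene to gene.

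Markers listed for other cell types also differed in level between libraries. The 9 pericyte and smooth muscle markers, 8 of them averaging 1 CPM or more, summed to 386, 519 and 373 CPM in Thbs2KO libraries and 357, 1292 and 932 CPM in WT libraries. WT replicate 1 was thus the lowest library, and Rgs5, a defining pericyte gene, was under 1 CPM in all 6. The largest parts of the WT sums were Cnn1 and Actg2. Cnn1 measured 105, 122 and 91.8 CPM in Thbs2KO libraries and 151, 421 and 415 CPM in WT libraries. Actg2 measured 86.3, 104 and 69.2 CPM in Thbs2KO libraries and 100, 442 and 298 CPM in WT libraries. Of the 8 markers tested, 6 had a negative log2 fold change and 2 a positive one. The 2 positive were Cspg4, also a pericyte marker, and Des (edgeR log2 fold change 0.36 and 0.051). Cspg4 measured 100, 161 and 93.4 CPM in Thbs2KO libraries and 61.0, 139 and 76.5 CPM in WT libraries. Des measured 71.3, 105 and 93.8 CPM in Thbs2KO libraries and 11.5, 175 and 74.3 CPM in WT libraries. The 9 epithelial markers, 4 of them averaging 1 CPM or more, summed to 7.28 to 9.63 CPM in Thbs2KO libraries and 19.9 to 26.5 CPM in WT libraries, without overlap. The 6 endothelial markers, 2 of them averaging 1 CPM or more, summed to 31.4 to 50.5 CPM in Thbs2KO libraries and 11.7 to 31.9 CPM in WT libraries, from Kdr and Tek, while Pecam1 and Cdh5 were under 1 CPM. The part of these cells in the levels of the 35 genes was not tested.

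Among 51 further genes of the adhesion machinery, 48 could be tested and 0 passed by edgeR, while 1 was higher and 13 lower at an edgeR p under 0.05 before adjustment, where the shares of all genes were 5.72% and 7.56%. By DESeq2 1 was called higher and 7 lower, where the shares were 2.21% and 2.93%, and limma-voom called 1. The higher call was Tns2, another tensin gene, named after its value was seen. It measured 112, 104 and 125 CPM in Thbs2KO libraries and 94.1, 83.9 and 72.4 CPM in WT libraries (DESeq2 log2 fold change 0.45, adjusted p = 0.028). Of the 48, 35 had a negative log2 fold change, against 50.9% of all genes, with a median of -0.076. Lpp, a relative of zyxin, measured 259, 266 and 353 CPM in Thbs2KO libraries and 403, 514 and 499 CPM in WT libraries (edgeR log2 fold change -0.69, SE 0.155, Benjamini-Hochberg adjusted p = 0.114). No Thbs2KO library reached the WT range of Lpp. Such a gap, with Thbs2KO lower, held for 13 of the 48 and for 10.3% of all tested genes. DESeq2 called Lpp lower (adjusted p = 0.00234).

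Of 36 genes for integrin ligands 35 could be tested, and 2 fell by edgeR while 0 rose, where 0.537% of all genes were called lower and 0.552% higher. These were Thbs2, the gene by which the groups are labelled, and Ccn2, a matricellular protein that integrins bind. Before adjustment 5 ligands were higher and 9 lower at an edgeR p under 0.05, where the shares of all genes were 5.72% and 7.56%. Ccn2 measured 537, 572 and 650.3 CPM in Thbs2KO libraries and 1215, 1777 and 2121 CPM in WT libraries (edgeR log2 fold change -1.54, SE 0.209, Benjamini-Hochberg adjusted p = 0.0299). Col6a2 had the third smallest p, at 872, 819.8 and 1625 CPM in Thbs2KO libraries and 501, 529 and 587 CPM in WT libraries (edgeR, Benjamini-Hochberg adjusted p = 0.155). It did not pass by edgeR, but DESeq2 called it higher (log2 fold change 1.04, adjusted p = 0.00332). DESeq2 called 2 ligands higher and 6 lower, where the shares of all genes were 2.21% and 2.93%. The other higher call was Col6a1 (DESeq2 adjusted p = 0.0147), named after its value was seen. Col6a2 had a log2 fold change of 0.65 without Thbs2KO replicate 3 instead of 1.04. The call of Ccn2 needs all the libraries but WT replicate 1: its edgeR adjusted p (Benjamini-Hochberg) was 0.164, 0.146 and 0.0647 with Thbs2KO replicate 1, 2 or 3 left out, and 0.0905 and 0.0853 with WT replicate 2 or 3 left out. Its log2 fold change in those fits lay between -1.62 and -1.35. Without WT replicate 1 the list had 4 edgeR calls, all lower, where 1.83% of all genes were called lower.

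Reads of genes that share exon bases on opposite strands cannot be told apart in these unstranded libraries. By the annotation 11 of the 35 members have such a neighbour. The largest shared parts were those of Ilk with Taf10 (2106 of 2744 exon bases of Ilk) and Vcl with Ap3m1 (2090 of 8191). Taf10 averaged 30.4 CPM in Thbs2KO and 32.3 CPM in WT, a log2 fold change of -0.084. Ap3m1 averaged 85.2 CPM in Thbs2KO and 83.1 CPM in WT, a log2 fold change of 0.036. Zyx shares 236 bases with Epha1, which averaged 14.4 CPM in Thbs2KO and 21.7 CPM in WT.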

How the data were processed

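RNA-seq of cultured CAFs was analysed, 3 Thbs2KO and 3 WT libraries. The authors deposited expected counts per gene, not scaled between libraries. The genome build mm10 and the tools RSEM, STAR 2.7.3a and Trimmomatic 0.39 are named, per the submitters' processing notes; for RSEM the version, and for the genes the annotation, is not given in the sources used here. Per the labels' protocols, libraries came from a TruSeq kit that does not mark strand. Non-whole values made up 3.80% to 3.88% of each library, and all were rounded to whole counts for the tests.

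Genes passing filterByExpr (13590) were fitted with the quasi-likelihood test of edgeR 4.0.16 in R 4.3.3 (robust, TMM, genotype only), adjusted by Benjamini-Hochberg over all tested genes with a threshold of 0.05. All 35 members passed the filter. Standard errors came from the F statistic. Alternatives used DESeq2 1.42.0 and limma-voom (limma 3.58.1), and the edgeR step was tested on simulated data. Exon lengths, positions and overlaps came from the M21 release of GENCODE on GRCm38 (mm10), and starts from RefSeq. Every member could be named; from the further lists, genes past the threshold and the 3 with the smallest p were to be named, with Thbs2, and some of these are not reported here. Neighbours on the other strand and marker genes were named after their values were seen. The members and lists were chosen with earlier results of these data known. Figures used matplotlib 3.10.9.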

Additional observations from a re-analysis of the deposited data

How the results depend on the processing

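No member was called in the fit reported, and the count stayed at 0 with RLE or upper-quartile scaling, limma-voom, a minimum of 10 counts in every library, no robust estimation, the replicate block and Thbs2KO replicates 1 and 2 summed. Unfiltered, 1 member passed (Tns1), DESeq2 called 8, and 19 passed when WT replicate 1 was left out together with Thbs2KO replicate 3. The whole table gave 148 calls, against 699 by DESeq2, 245 unfiltered, 1519 with those libraries left out and 38 with the pair summed. Further adhesion genes gave 0 calls, against 1 with upper-quartile scaling, 1 by limma-voom, 2 unfiltered, 8 by DESeq2 and 16 with both left out. Ligands gave 2, against 8 by DESeq2, 13 with both left out and 1 with the pair summed.

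The labels number replicates 1 to 3 in each group and do not say whether the numbers pair libraries. Deviations of same-numbered libraries from their group means had correlations of -0.29, 0.17 and -0.33. These cannot decide on a pairing, because deviations within a group of 3 depend on each other. With the replicate block neither Thbs2 nor Ccn2 passed (edgeR, Benjamini-Hochberg adjusted p = 0.0784 and 0.0785), and 30 genes were called over the whole table, 0 members, 0 further adhesion genes and 0 ligands.

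With 1 library left out in turn, calls ran from 0 to 6 for members, 38 to 397 for the whole table, 0 to 9 for further adhesion genes and 1 to 4 for ligands. The members called were Itga11 without Thbs2KO replicate 3, and Actn1, Actn4, Fermt2, Flna, Itga5 and Tns1 without WT replicate 1. The direction held in all 16 alternatives for 26 of the 35 members. With 1 library left out, log2 fold changes ran from -0.12 to 0.64 for Itga2, -0.43 to 0.045 for Itga3, -0.13 to 0.24 for Itga6, -0.11 to 0.43 for Itga7, -1.20 to 0.15 for Itga8, -0.13 to 0.86 for Itga10, -0.16 to 0.22 for Itgb5 and -0.20 to 0.11 for Pxn. With WT replicate 1 and also Thbs2KO replicate 3 left out they were -0.17 for Itga7, -0.15 for Itgb5, 0.32 for Itgb7 and 0.10 for Pxn, and with the pair summed -0.0095 for Itga6. The cause of these turns was not tested beyond the libraries left out.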
